A study of Mus musculus with 12 samples.

Results

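Dual-specificity phosphatases of the MAP kinase phosphatase group were followed in injured murine hip cartilage. The group was fixed by gene symbol as Dusp1, Dusp2, Dusp4, Dusp5, Dusp6, Dusp8, Dusp10, Dusp14 and Dusp16, and 8 of these 9 genes had a probe in the normalized table, with 15 probes in all, out of 15434 symbols and 21004 probes. No probe carried the symbol Dusp5, which was not analysed here. RNA of femoral head epiphyseal cartilage from C57BL6 mice of 4 to 6 weeks of age was hybridized to 12 Illumina mouse BeadChips, 3 for each of 4 groups. WT hips and hips labelled Mapk9 KO, lacking the gene for a c-Jun N-terminal kinase (JNK), were either snap-frozen after avulsion of the epiphysis (control) or held in culture for 4 h after it (injured). Each biological replicate was a pool of 6 hips from 3 mice, and the injured groups differed from the controls by time in culture as well as time after injury, so these cannot be told apart. The Mapk9 KO carries no cell type restriction in the labels, and how the allele was made is not given in the sources used here.

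Dual-specificity MAP kinase phosphatases switch off ERK, p38 and JNK by removing phosphate from both the threonine and the tyrosine of the kinase activation loop. Several of them are immediate early genes, transcribed within minutes of growth factor, cytokine or stress signals, so that they close a negative feedback loop on the kinase that induced them. Dusp1, Dusp2 and Dusp4 encode inducible nuclear enzymes, Dusp6 a cytoplasmic enzyme selective for ERK, Dusp8, Dusp10 and Dusp16 enzymes that act mainly on JNK and p38, and Dusp14 a small atypical enzyme without the kinase-binding domain of the others.

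The promoters of 3 members are printed, chosen after their values were seen: Dusp1 and Dusp2, which rose in WT with and without a known stress-responsive motif, and Dusp6, whose main probe hardly moved. The motifs did not run with the calls over the other members. The sequences are the 250 bases before the RefSeq start site (build GRCm38.p6), written 5′ to 3′ on the strand of the gene. Both strands were searched for the cAMP response element (CRE, TGACGTCA), the shorter TGACG (which every CRE contains on both strands), the AP-1 site (TGANTCA) and the CArG box, and capitals mark every match.
Dusp1, chr17:26508473-26508722 (− strand): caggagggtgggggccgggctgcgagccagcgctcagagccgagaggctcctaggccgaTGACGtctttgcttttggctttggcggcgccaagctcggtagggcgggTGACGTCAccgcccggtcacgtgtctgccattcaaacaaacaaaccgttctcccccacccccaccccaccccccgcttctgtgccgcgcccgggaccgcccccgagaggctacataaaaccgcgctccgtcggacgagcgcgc
Dusp2, chr2:127335909-127336158 (+ strand): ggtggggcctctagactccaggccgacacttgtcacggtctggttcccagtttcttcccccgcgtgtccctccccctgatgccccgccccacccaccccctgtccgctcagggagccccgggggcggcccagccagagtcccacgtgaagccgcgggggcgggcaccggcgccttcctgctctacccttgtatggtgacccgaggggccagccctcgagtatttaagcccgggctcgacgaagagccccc
Dusp6, chr10:99262981-99263230 (+ strand): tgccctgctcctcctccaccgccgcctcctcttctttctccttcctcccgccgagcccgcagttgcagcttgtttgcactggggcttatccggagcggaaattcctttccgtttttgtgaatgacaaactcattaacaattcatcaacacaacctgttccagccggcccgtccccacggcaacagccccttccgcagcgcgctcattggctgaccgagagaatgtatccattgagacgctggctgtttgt

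Dusp1 held 1 CRE that begins 143 bases before the start and a separate TGACG 191 bases before it. Dusp2 and Dusp6 held none of the motifs, nor did Dusp10, which was not called, and Dusp14, which rose in both genotypes. The Dusp14 start site used lies 899 bases inside the outermost gene end, so its window does not cover the bases before that end. Dusp5, which had no probe, held 1 TGACG and 2 CArG boxes. Dusp8, not called in either genotype, held 2 CREs and Dusp16 a single TGACG, shown with 8 bases on either side, since the start sites of both genes lie inside the outermost gene end.
Dusp8, 107 bases before the start, chr7:142095376-142095399 (− strand): cgctccgcTGACGTCAcctgcccc
Dusp8, 63 bases before the start, chr7:142095332-142095355 (− strand): gctgcaggTGACGTCAggggcttt
Dusp16, 70 bases before the start, chr6:134792686-134792706 (− strand): gtttcaagTGACGccatctct

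Over 32534 distinct promoter windows of the same length, 1.56% held a CRE, 17.9% a TGACG, 6.73% an AP-1 site and 1.48% a CArG box. A match describes these letters in these windows and was not tested for binding or for a part in the changes below.

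Injury upregulated 5 of the 8 measured Dusp genes in WT cartilage, namely Dusp1, Dusp2, Dusp4, Dusp14 and Dusp16, by 2.15-fold to 6.75-fold at the 9 probes that passed. In Mapk9 KO cartilage Dusp1, Dusp4, Dusp14 and Dusp16 were upregulated at 7 probes. No member was downregulated past the threshold in either genotype by limma or by the t-test that the study's methods name for its metabolites, run on the array values (the methods' t-test), and at an unadjusted p under 0.05 limma gave 0 lower probes in WT and 2 in Mapk9 KO. The main probes of Dusp6 and Dusp10 moved by 0.41 or less on the log2 scale in both genotypes, and Dusp8 did not pass in either.

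Values are normalized log2 intensities, so a difference of 1 is a 2-fold change, and an intensity of one probe is not comparable with that of another. A gene was called when at least 1 of its probes changed more than 2-fold with a Benjamini-Hochberg adjusted p under 0.05 in limma. By this rule 9 of the 15 Dusp probes rose in WT, where 7.55% of all 21004 probes rose and 7.14% fell, and 7 of 15 rose in Mapk9 KO, where 9.59% rose and 9.14% fell. Every injured array lay above every control array at 11 of the 15 Dusp probes in WT, against 20.3% of all probes, and at 9 in Mapk9 KO, against 24.5%. The median change of the 15 probes was 1.25 in WT and 0.95 in Mapk9 KO, beside -0.02 over all probes in each genotype. Since each group holds 3 arrays, an exact permutation test of a single probe could not go below p = 0.1.

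**Figure D1:**
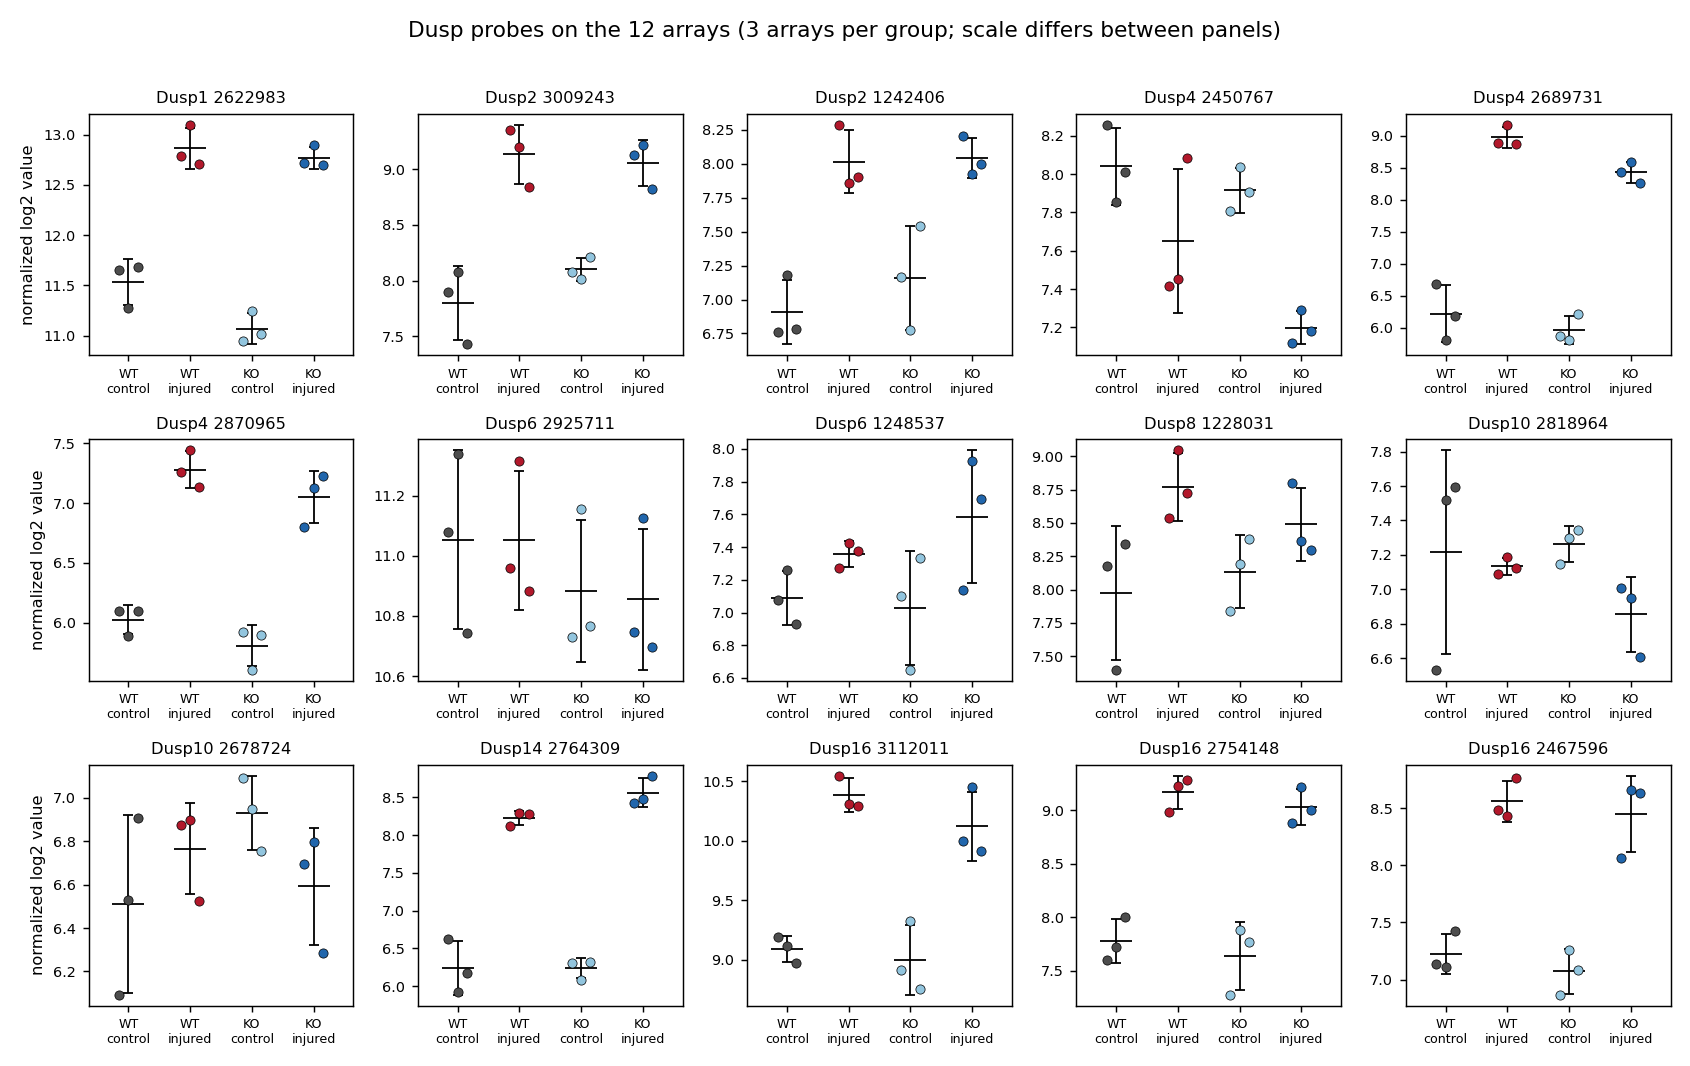
Normalized log2 value of each of the 15 Dusp probes (vertical axis, own scale in each panel) on the 3 arrays of WT control, WT injured, Mapk9 KO (KO) control and Mapk9 KO injured cartilage; points are arrays, horizontal lines means and bars 1 SD, and panel titles give the gene and the probe number. Dusp1, Dusp14, both Dusp2 probes, all 3 Dusp16 probes and 2 of the 3 Dusp4 probes lie higher in injured than in control cartilage with no overlap in both genotypes, while the Dusp6 ILMN_2925711 groups overlap.

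Dusp1, the founding nuclear MAP kinase phosphatase, which acts on p38, JNK and ERK, was measured by 1 probe, ILMN_2622983. In WT control cartilage its values were 11.65, 11.27 and 11.68, and in WT injured cartilage 12.79, 13.09 and 12.71. In Mapk9 KO control cartilage they were 10.94, 11.24 and 11.02, and in Mapk9 KO injured cartilage 12.72, 12.90 and 12.69. The injured arrays were all higher than the control arrays in each genotype, and the 3 Mapk9 KO control arrays were the lowest of the 12. Dusp1 rose 2.52-fold in WT (log2 1.33, SE 0.21, limma adjusted p = 0.00157) and 3.25-fold in Mapk9 KO (log2 1.70, SE 0.17, adjusted p = 2.68e-05). The control level was lower in Mapk9 KO than in WT by a log2 difference of -0.47, which did not pass (95% interval -0.94 to 0.00476, limma adjusted p = 0.779), and the injured levels differed by -0.10 (95% interval -0.48 to 0.28). The change was larger in Mapk9 KO by 0.37 on the log2 scale, with an interval from -0.17 to 0.92 (limma adjusted p = 0.664).

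Dusp2, an inducible nuclear phosphatase first known from activated leukocytes, had 2 probes, and both gave the same picture. At ILMN_3009243 the WT values were 7.90, 8.07 and 7.43 in control and 9.36, 9.20 and 8.84 in injured cartilage. The Mapk9 KO values were 8.08, 8.01 and 8.21 in control and 9.13, 9.22 and 8.82 in injured cartilage. The groups did not overlap in either genotype, and the injured arrays of both genotypes covered nearly the same range. Dusp2 rose 2.52-fold in WT (log2 1.34, SE 0.24, limma adjusted p = 0.00291), and the change of 1.94-fold in Mapk9 KO had an adjusted p of 0.00172 but fell short of the fold limit. ILMN_1242406 differed 2.15-fold in WT (adjusted p = 0.00487) and 1.84-fold in Mapk9 KO (adjusted p = 0.00804). The difference between the genotypes did not pass at either probe (log2 -0.38, 95% interval -1.01 to 0.24, limma adjusted p = 0.701 at ILMN_3009243), so the call in WT and its absence in Mapk9 KO do not show a difference between them. Without replicate 3 of the Mapk9 KO control arrays the change was 1.01 (adjusted p = 0.00338), and without replicate 3 of the Mapk9 KO injured arrays 1.07 (adjusted p = 0.00256), and limma then called Dusp2 in Mapk9 KO as well. Without replicate 1 of the WT injured arrays the WT change at ILMN_1242406 was 0.97, under the fold limit, while ILMN_3009243 still passed.

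The cartilage samples held blood cell transcripts, and these did not move as one beside Dusp2. Neutrophil and lymphocyte means were higher after injury, whereas the erythroid mean differed by -0.24 in WT and -0.42 in Mapk9 KO. The mean log2 value of 7 of 8 listed neutrophil markers with a probe, all 7 detected on every array, was 12.75 to 13.43 in WT control and 13.89 to 14.08 in WT injured cartilage, a difference of 0.91. In Mapk9 KO it was 13.16 to 13.59 and 13.56 to 14.07, a difference of 0.38. Of these 7 genes 4 were called higher in each genotype, and the median change of the main probes was 0.67 in WT and 0.11 in Mapk9 KO. Probes of the same gene differed. In Mapk9 KO Ltf changed by -0.20 at its main probe and 2.28 at the dimmer ILMN_2889020, and Mpo by 0.11 and, at ILMN_2719256, 1.89. For 7 of 8 lymphocyte markers the means were 7.20 to 7.71 and 8.06 to 8.16 in WT, and 7.46 to 7.78 and 7.73 to 7.83 in Mapk9 KO, with Cd3e, a T cell receptor subunit, detected on 0 arrays. Over their main probes the median change was 0.77 in WT and -0.06 in Mapk9 KO. The part of these cells in the Dusp2 values was not tested. In bulk RNA of this kind, a change in the number of cells of a type and a change in RNA per cell cannot be told apart.

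Dusp4, a nuclear phosphatase that acts on ERK and JNK, showed the largest rise among the members at 1 probe and did not rise at another. Under quantile normalization without background correction Dusp1 and Dusp14 rose by more in Mapk9 KO, by 1.63 and 1.42 on the log2 scale against 1.41. At ILMN_2689731 the WT values were 6.68, 5.80 and 6.18 in control and 8.89, 9.17 and 8.87 in injured cartilage. The Mapk9 KO values were 5.86, 5.80 and 6.21 in control and 8.43, 8.58 and 8.27 in injured cartilage. All injured arrays lay above all control arrays with a wide gap, and the probe was detected on 2 of 3 WT control arrays, 1 of 3 Mapk9 KO control arrays and all injured arrays. The rise was 6.75-fold in WT (log2 2.76, SE 0.25, limma adjusted p = 6.07e-05) and 5.54-fold in Mapk9 KO (log2 2.47, SE 0.19, adjusted p = 3.34e-06).

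The second Dusp4 probe, ILMN_2870965, had values of 6.10, 5.89 and 6.10 in WT control and 7.26, 7.44 and 7.13 in WT injured cartilage. In Mapk9 KO control cartilage, with 5.92, 5.61 and 5.90, it was detected on none of the 3 arrays, and in injured cartilage it had 6.80, 7.13 and 7.22. It rose 2.38-fold in WT (limma adjusted p = 0.00137) and at least 2.17-fold in Mapk9 KO (adjusted p = 0.000429), where the bound is taken against the lowest signal of any detected probe on each control array. Quantile normalization without background correction brought both below the fold limit, to a log2 change of 0.63 in WT and 0.55 in Mapk9 KO, and ILMN_2689731 to 1.72 and 1.41. These Dusp4 control values lay close to the lowest value of a detected probe, which was 5.62 to 6.05 per array.

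The remaining Dusp4 probe, ILMN_2450767, which had the highest mean of the 3, went the other way. Its values were 8.25, 7.86 and 8.01 in WT control and 7.41, 7.45 and 8.08 in WT injured cartilage. They were 7.81, 8.04 and 7.90 in Mapk9 KO control and 7.12, 7.29 and 7.18 in Mapk9 KO injured cartilage. The WT groups overlapped through the injured array at 8.08, and the Mapk9 KO groups did not overlap, injured below control. The log2 change was -0.39 in WT (95% interval -0.92 to 0.14, limma adjusted p = 0.265) and -0.72 in Mapk9 KO (95% interval -1.09 to -0.35, adjusted p = 0.00597, under the fold limit). The array annotation gives a start at base 2 for this probe, base 2202 for ILMN_2689731 and base 2094 for ILMN_2870965. It assigns all 3 to the same Dusp4 transcript, ILMN_2870965 from RefSeq and the others from another source. Whether the starts count along the same sequence is not given, so they do not place the probes in the transcript. The cause of the disagreement was not tested. With only the probe of highest mean kept for each gene, Dusp4 was not called, which left 4 members called in WT and 3 in Mapk9 KO.

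Dusp6, the cytoplasmic phosphatase that binds ERK and is widely read as a marker of ERK signalling, had no detectable change at its main probe. At ILMN_2925711 the WT values were 11.08, 11.34 and 10.74 in control and 10.96, 11.32 and 10.88 in injured cartilage. The Mapk9 KO values were 10.73, 11.16 and 10.77 in control and 10.75, 11.12 and 10.70 in injured cartilage. The 4 groups overlapped throughout, and replicate 2 was the highest in each of them. The log2 change was -0.00 in WT (95% interval -0.50 to 0.50, limma adjusted p = 0.998) and -0.03 in Mapk9 KO (95% interval -0.47 to 0.41, adjusted p = 0.93). Paired by replicate number, the injured minus control differences ran from -0.12 to 0.14 in WT and from -0.07 to 0.02 in Mapk9 KO. The other probe, ILMN_1248537, lay between 6.65 and 7.93 and changed by 0.27 in WT (95% interval -0.16 to 0.70) and 0.56 in Mapk9 KO (95% interval 0.01 to 1.10, adjusted p = 0.1), and did not pass.

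Dusp8, a phosphatase of JNK and p38 best known from brain and heart, had 1 probe, ILMN_1228031. Its WT values were 8.17, 7.40 and 8.34 in control and 8.54, 9.04 and 8.72 in injured cartilage. Its Mapk9 KO values were 7.84, 8.19 and 8.38 in control and 8.80, 8.37 and 8.30 in injured cartilage. The WT groups did not overlap and the Mapk9 KO groups overlapped. The difference of 1.74-fold in WT missed the threshold (log2 0.80, 95% interval 0.19 to 1.40, limma adjusted p = 0.0565), as did that of 0.35 in Mapk9 KO (95% interval -0.11 to 0.82, adjusted p = 0.214). Without replicate 2 of the WT control arrays, the array at 7.40, the WT difference was 0.51 on the log2 scale (limma adjusted p = 0.134).

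Dusp10, a phosphatase of JNK and p38 with a role in innate immune responses, had 2 probes of low signal. ILMN_2818964 gave 6.53, 7.52 and 7.59 in WT control and 7.09, 7.19 and 7.12 in WT injured cartilage. It gave 7.15, 7.30 and 7.34 in Mapk9 KO control and 7.01, 6.95 and 6.60 in Mapk9 KO injured cartilage. The WT control arrays spread around the injured ones, whereas in Mapk9 KO every injured array was below every control array. The log2 change was -0.08 in WT (95% interval -0.71 to 0.54, limma adjusted p = 0.864) and -0.41 in Mapk9 KO (95% interval -0.81 to -0.01, adjusted p = 0.0994), and neither passed. At ILMN_2678724 the changes were 0.25 in WT and -0.34 in Mapk9 KO, with adjusted p of 0.493 and 0.199. Their difference of -0.59 was the largest of the 15 probes in size and did not pass either (95% interval -1.27 to 0.08, limma adjusted p = 0.55). Without replicate 1 of the WT control arrays, the array at 6.53, the WT change at ILMN_2818964 was -0.42 (limma adjusted p = 0.204) and its difference between genotypes 0.02 in place of -0.33, and the difference at ILMN_2678724 was -0.39.

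Dusp16, a phosphatase of JNK and p38 that shuttles between nucleus and cytoplasm, had 3 probes that rose together. At ILMN_3112011 the WT values were 9.19, 9.11 and 8.98 in control and 10.55, 10.31 and 10.29 in injured cartilage. The Mapk9 KO values were 8.92, 9.33 and 8.76 in control and 10.00, 10.45 and 9.91 in injured cartilage. The injured arrays were higher than the control arrays without overlap in both genotypes. This probe rose 2.44-fold in WT (log2 1.29, SE 0.19, limma adjusted p = 0.00107) and 2.17-fold in Mapk9 KO (log2 1.12, SE 0.22, adjusted p = 0.00206). ILMN_2754148 rose 2.62-fold in both genotypes, and ILMN_2467596 rose 2.53-fold in WT and 2.60-fold in Mapk9 KO. The difference between the genotypes in the change lay between -0.17 and 0.04 over the 3 probes, with intervals that reached from -0.77 to 0.65. At ILMN_3112011 the Mapk9 KO change fell just below the fold limit without replicate 3 of the Mapk9 KO control arrays (0.998 on the log2 scale) or replicate 2 of the Mapk9 KO injured arrays (0.95), while another Dusp16 probe still passed.

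Dusp14, the small atypical phosphatase, was measured by 1 probe, ILMN_2764309. Its WT values were 6.63, 5.92 and 6.18 in control and 8.13, 8.29 and 8.28 in injured cartilage. Its Mapk9 KO values were 6.31, 6.09 and 6.32 in control and 8.42, 8.48 and 8.79 in injured cartilage. The groups were far apart in both genotypes, the control arrays of both genotypes covered one range, and each Mapk9 KO injured array was above each WT injured array. Dusp14 rose 3.97-fold in WT (log2 1.99, SE 0.22, limma adjusted p = 0.000213) and 5.01-fold in Mapk9 KO (log2 2.33, SE 0.18, adjusted p = 3.96e-06). The injured levels differed between genotypes by 0.33 (95% interval -0.04 to 0.71, adjusted p = 0.451) and the changes by 0.33 (95% interval -0.26 to 0.93, adjusted p = 0.729), neither of which passed. Under quantile normalization without background correction the changes were 1.15 in WT and 1.42 in Mapk9 KO and still passed.

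Paired by replicate number, the injured array exceeded the control array in 3 of 3 pairs in both genotypes at each of the 9 probes that were called. The differences of the Dusp16 probe ILMN_3112011 ran from 1.20 to 1.35 in WT and from 1.08 to 1.16 in Mapk9 KO. Those of the Dusp4 probe ILMN_2689731 ran from 2.21 to 3.36 in WT and from 2.05 to 2.78 in Mapk9 KO. Those of Dusp1 ran from 1.03 to 1.82 in WT and from 1.66 to 1.77 in Mapk9 KO. Beyond the 15 probes, 4 others on the array carry these symbols, 2 for Dusp16 and 1 each for Dusp4 and Dusp6, and they were detected on 0 arrays.

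**Figure D2:**
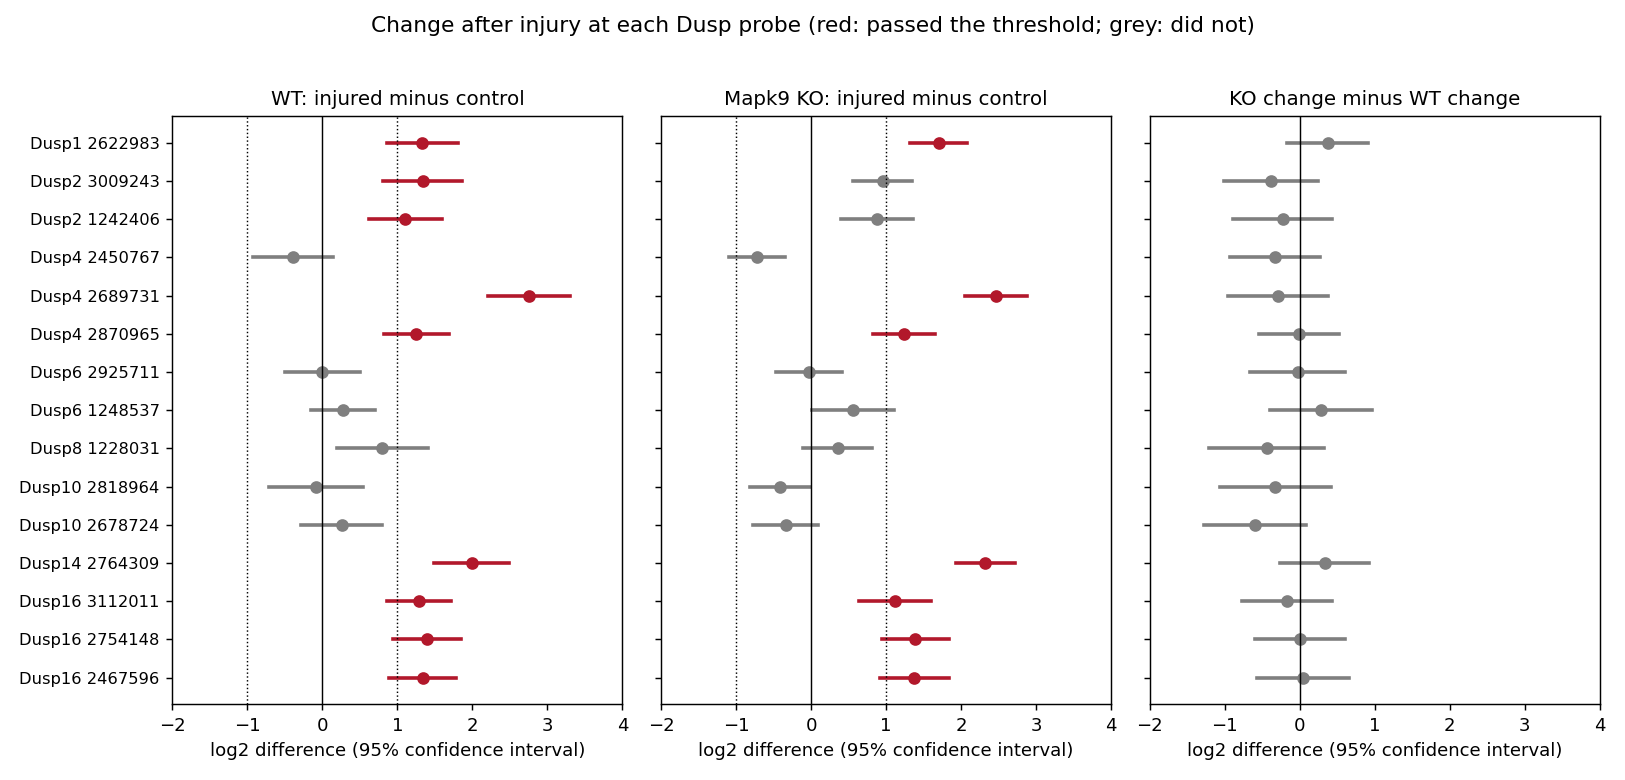
Log2 difference at each Dusp probe for injured minus control in WT (left), injured minus control in Mapk9 KO (middle) and the Mapk9 KO change minus the WT change (right); points are fitted differences, bars 95% confidence intervals, red marks probes that passed the threshold and grey those that did not, and dotted lines mark a 2-fold change. The red points are 9 in WT and 7 in Mapk9 KO, and every interval on the right includes 0.

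**Figure D3:**
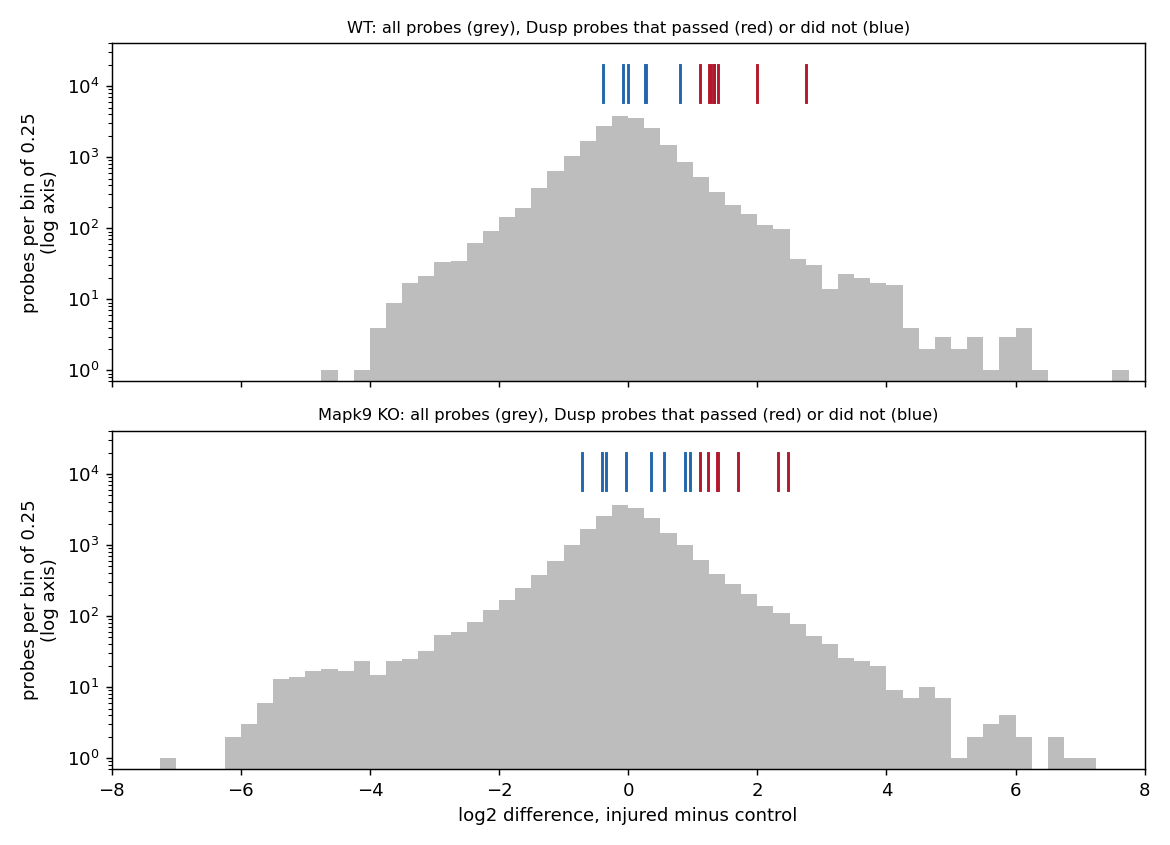
Histogram of the log2 difference, injured minus control, over all 21004 probes in WT (top) and Mapk9 KO (bottom), with the number of probes per bin of 0.25 on a log axis; the short vertical lines mark the 15 Dusp probes, red where they passed the threshold and blue where they did not. The Dusp probes run from -0.39 to 2.76 in WT and from -0.72 to 2.47 in Mapk9 KO.

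The Mapk9 KO arrays addressed whether loss of a JNK gene alters these phosphatases. The Mapk9 probe ILMN_2591066 checked the labels: it read 10.88, 10.90 and 10.50 in WT control against 9.14, 9.28 and 9.15 in Mapk9 KO control cartilage, a log2 difference of -1.57 (SE 0.21, limma adjusted p = 0.0151), and differed by -1.57 in injured cartilage as well (adjusted p = 0.00485). It was still detected on all 6 Mapk9 KO arrays. The second Mapk9 probe, ILMN_2716527, was detected on 3 of 3 WT control arrays, 1 of 3 WT injured arrays and 0 of the 6 Mapk9 KO arrays, with a measured difference of -2.67 in control cartilage (limma adjusted p = 0.00244) that is at least 1.92-fold against the lowest detected signal. The part of the transcript that the allele removes is not given in the sources used here. No Dusp probe passed between genotypes in control cartilage, where 0.119% of all probes did (differences from -0.47 to 0.42, lowest limma adjusted p = 0.779, 0 of 15 at an unadjusted p under 0.05). None passed in injured cartilage either, where 0.181% of all probes did. There the differences ran from -0.55 to 0.33, with 1 of 15 at an unadjusted p under 0.05, the Dusp4 probe ILMN_2689731, which was lower in Mapk9 KO by a log2 difference of -0.55 (95% interval -0.93 to -0.17, adjusted p = 0.258). At this probe every Mapk9 KO injured array lay below every WT injured array.

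The test of whether the injury change differed between genotypes gave 0 of 15 Dusp probes in limma, with 0 at an unadjusted p under 0.05 and adjusted p from 0.55 to 0.999. It gave 0% of all 21004 probes, of which 2088 had an unadjusted p under 0.05, and an ordinary linear model without limma's shared variance also gave 0. With the replicate number as a block, 112 probes passed, 102 of them with a positive difference (Mapk9 KO change minus WT change), and no Dusp probe was among them. Without replicate 3 of the WT control arrays 25 probes passed with a positive and 217 with a negative difference, again with no Dusp probe. The 95% intervals of the difference reached 0.54 to 0.77 to either side at the Dusp probes, and 0.39 to 0.81 with the replicate number as a block, where 0 of 15 had an unadjusted p under 0.05.

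Other tissues moved with injury in the same samples. The mean log2 value of 10 chondrocyte markers, all detected on every array at their main probes, lay at 10.35 to 10.84 in WT control and 11.77 to 12.02 in WT injured cartilage. In Mapk9 KO it lay at 10.23 to 10.93 and 11.73 to 11.99, so that it was higher after injury by 1.19 and 1.20. The list did not move as one: 6 of the 10 rose and 1 fell past the threshold in WT, and 7 rose in Mapk9 KO. The 1 that fell was Col11a1, at ILMN_1232987 (log2 -1.26). Its main probe ILMN_2776931 went the other way in WT, by 0.85 (limma adjusted p = 0.0304, under the fold limit). Matn1, a cartilage matrix protein, rose by 3.16 in WT and 3.07 in Mapk9 KO, whereas the main probe of Col2a1, the main cartilage collagen, changed by 0.54 (limma adjusted p = 0.15) and 0.03 (adjusted p = 0.937) and was not called. For 14 skeletal muscle markers the mean lay at 11.55 to 12.96 and 8.53 to 10.63 in WT, and at 13.13 to 13.59 and 8.98 to 10.28 in Mapk9 KO, differences of -2.52 and -3.83, with 13 and 14 of them lower past the threshold. Adipocyte markers, of which only Cfd was detected on most arrays, differed in the mean by -1.70 in WT and -2.76 in Mapk9 KO, and 8 bone markers by -0.33 and -0.80, with 3 and 4 of them lower past the threshold. Of 7 macrophage markers 2 rose and 3 fell in WT, and 2 rose and 4 fell in Mapk9 KO, with a median change of -0.78 and -1.40 over the main probes. Among them Cd14, a receptor for bacterial lipopolysaccharide, rose by 5.01 and 5.33 on the log2 scale. Endothelial and erythroid means differed by 0.42 or less in size. The part of tissue make-up in the Dusp values was not tested.

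The kinases upstream of and acted on by these phosphatases were listed beside them. Of 10 MAP kinase genes with a probe, 1 rose and 2 fell in WT, beside 7.55% and 7.14% of all probes, and 2 rose and 1 fell in Mapk9 KO, beside 9.59% and 9.14%, so that these counts, and that of the MAP kinase kinases below, are too small to set apart from the shares of all probes. Mapk13, which encodes the p38 delta kinase, rose at its main probe ILMN_1212692 by 2.33 on the log2 scale in WT (SE 0.27, limma adjusted p = 0.000263) and by 2.29 in Mapk9 KO. Mapk12, the p38 gamma kinase of skeletal muscle, changed at ILMN_2724570 by -1.31 in WT (SE 0.28, adjusted p = 0.00735) and by -1.93 in Mapk9 KO, beside the lower muscle markers. Mapk9 itself fell in WT at its dim probe ILMN_2716527 (log2 -1.25, adjusted p = 0.0206), detected on 1 of 3 WT injured arrays, and not at ILMN_2591066. Mapk6, an atypical kinase, was the other gene that rose in Mapk9 KO, at 1 of its 4 probes, and it was named after its values were seen. Of 6 MAP kinase kinase genes Map2k6, an activator of p38, was the one called, lower in each genotype. At its main probe ILMN_2623856 it was not detected on any WT injured array and was at least 1.81-fold lower there (adjusted p = 0.00217). In Mapk9 KO that probe changed by -0.75 and was not called. The call there came from ILMN_2599748 alone (log2 -1.10, limma adjusted p = 0.0199), which was detected on no Mapk9 KO injured array and was at least 1.24-fold lower, and the methods' t-test did not make it.

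Genes commonly read as output of ERK were set beside Dusp6. Of 7 with a probe, 2 rose in WT, beside 7.55% of all probes, and 4 in Mapk9 KO, beside 9.59%, and none fell. Phlda1, a pleckstrin homology-like protein induced by growth factors, rose by 2.84 on the log2 scale in WT (SE 0.25, limma adjusted p = 5.55e-05) and by 3.09 in Mapk9 KO. Fosl1, the AP-1 subunit Fra-1, was not detected in any control array and was at least 8.94-fold higher post injury in WT (adjusted p = 1.19e-06) and at least 8.48-fold higher in Mapk9 KO. Epha2 and Spry4, named after their values were seen, were the other 2 genes called in Mapk9 KO. Epha2 rose there by 1.46 on the log2 scale (limma adjusted p = 0.000113), and Spry4, detected on no control array, was at least 1.73-fold higher (adjusted p = 0.000829), a bound below the fold limit. Ccnd1, Epha4 and Etv5 did not pass in either genotype. Of 3 Sprouty and Spred inhibitors with a probe, 1 passed in WT and 2 in Mapk9 KO, a list too short to read against these shares. The one in WT was Spry3, detected on 3 of the 12 arrays only, for which no fold above the lowest detected signal is shown in WT.

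Of 9 further dual-specificity phosphatase genes with a probe, 1 rose and 1 fell in WT, beside 7.55% and 7.14% of all probes, and 0 rose and 3 fell in Mapk9 KO, beside 9.59% and 9.14%. At an unadjusted p under 0.05 limma gave 1 gene higher and 5 lower in each genotype. The methods' t-test called 0 genes in either direction in WT, so the WT calls named next were lost with it, and in Mapk9 KO it called 0 higher and 3 lower. Dusp11, an RNA phosphatase, passed in WT at ILMN_2711705 (log2 1.08, SE 0.25, limma adjusted p = 0.0101) while its main probe ILMN_1259683 changed by -0.38 (adjusted p = 0.277). Dusp23, a small phosphatase, fell at ILMN_1252812 by 1.18 in WT (adjusted p = 0.00517) and by 1.24 in Mapk9 KO. The median change over their main probes was -0.38 in WT and -0.59 in Mapk9 KO, beside 1.04 and 0.65 over the main probes of the 8 members. Of 9 tyrosine and serine-threonine phosphatases known to act on MAP kinases, limma and the methods' t-test called 0 in either genotype, with 4 at an unadjusted p under 0.05 in each.

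**Figure D4:**
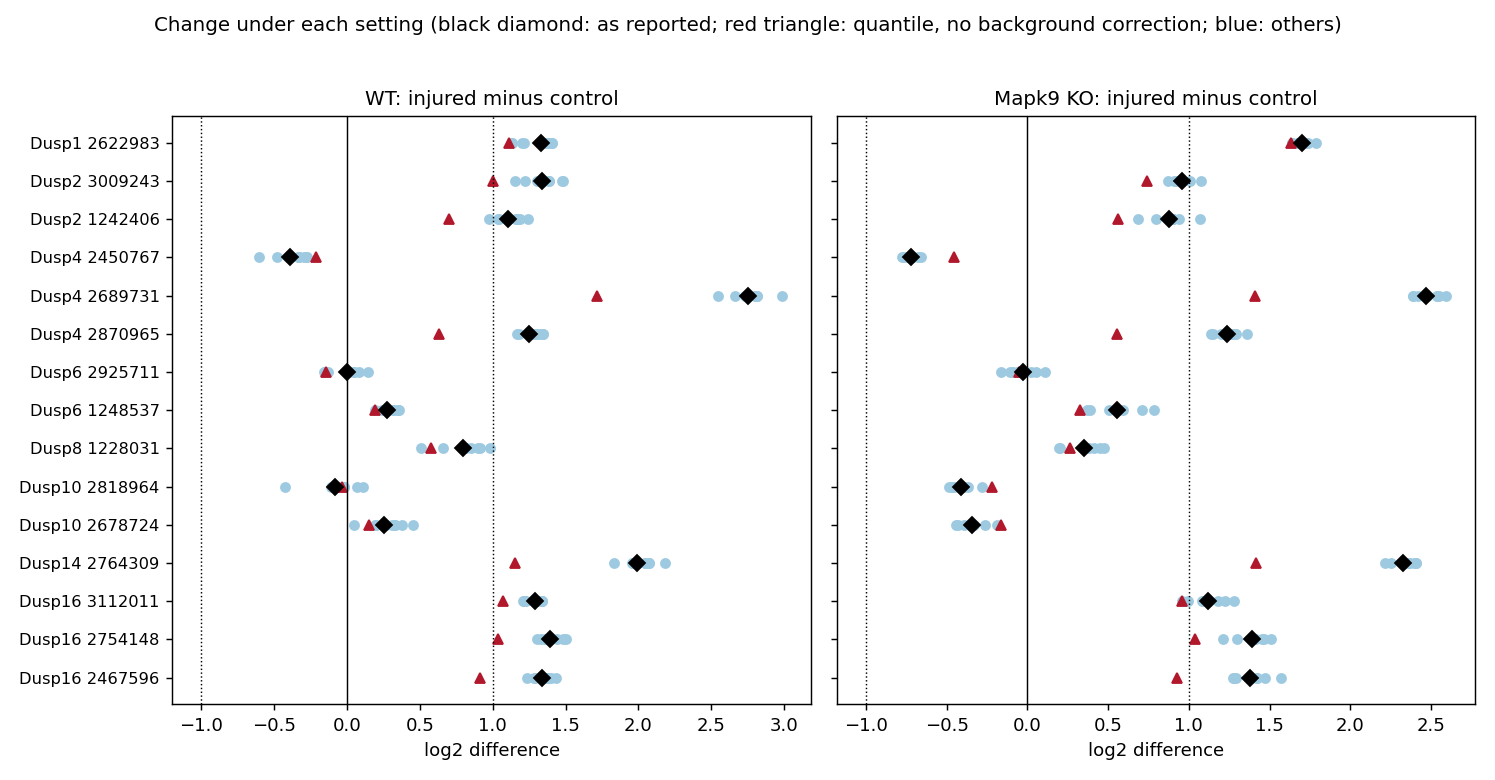
Log2 difference, injured minus control, of each Dusp probe in WT (left) and Mapk9 KO (right) under each way of processing; black diamonds are the reported values, red triangles quantile normalization without background correction, and blue points every other setting, with dotted lines at a 2-fold change. The red triangles of the Dusp4 and Dusp14 probes that rose lie furthest from their diamonds, at 1.72 and 1.15 for ILMN_2689731 and ILMN_2764309 in WT.

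Some genes off the list followed single members closely over the 12 arrays, which share the same injury groups, so that any gene changed by injury tends to correlate. The gene most like Dusp1 was BC014795, now Tmem63a (Pearson r = 0.997), that most like Dusp14 was Tbc1d1 (r = 0.991), and that most like Dusp2 was Nfe2 (r = 0.990), a transcription factor of blood cells. Dusp16 was closest to 2310005G13Rik, now Tmem45a2 (r = 0.984), whose probe was detected on all 6 injured and 0 of the 6 control arrays, and Dusp6 to Bet1l (r = 0.954). For Dusp4, Dusp8 and Dusp10 no gene passed the limit of 0.95.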

How the data were processed

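The deposited files hold bead signal intensities of 45281 probes with a detection p-value for each, and normalized log2 values of 21004 of them (46.4%). These log2 values were made by the authors, who subtracted an array-wise background taken from negative controls and then applied the vsn package, whose version is not given in the sources used here. Gene symbols are those of the deposited table.

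The log2 values were fitted with limma 3.58.1 (lmFit, eBayes) in R 4.3.3 over all 21004 probes, with Benjamini-Hochberg adjustment over all of them. Each comparison used its own 6 arrays and the interaction all 12. Calls required more than a 2-fold change at an adjusted p under 0.05, and for the interaction the adjusted p alone. A probe was detected where its detection p-value was under 0.05. Between 16930 and 18969 probes were detected per array, array medians lay between 7.55 and 7.70, and the number of arrays limits the precision. The fit was tested on simulated data.

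All probes of the members were named. From each list of kinases, other phosphatases, ERK output genes and Sprouty and Spred inhibitors, the 2 called genes with the largest rise and the 2 with the largest fall in WT were named (any other gene of these lists and every marker was named after its values were seen), and for the main probe of each member the most similar other gene where r exceeded 0.95. The main probe is that with the highest mean over the 12 arrays. Members and lists were chosen with earlier results of these data known. Deviations from group means correlated between 0.153 and 0.390 over 18 pairs of arrays with the same replicate number and between -0.289 and 0.0825 over 36 other pairs, so the numbers were taken to pair the arrays, and a fit with the number as a block was an alternative. The other alternatives were neqc (offset 16), quantile normalization alone, subtraction of array medians, filters on dim probes, all 12 arrays in one fit, a block on the number within the label code, the t-test that the methods name for metabolites, 1 probe per gene and leaving out each array. The methods name no test for the arrays, and a figure legend of the study gives Student's t-test for the gene values it shows. Promoters and current names came from RefSeq tables (GRCm38.p6), in which 8 of the 9 members had a promoter (all but Dusp4).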

Additional observations from a re-analysis of the deposited data

How the results depend on the processing

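The count of Dusp genes called higher was 5 in WT and 4 in Mapk9 KO, and no value of a called probe changed sign under any setting run. With only the probe of highest mean kept for each gene the counts were 4 and 3, without Dusp4. Leaving out 1 array gave 5 in WT throughout and 4 to 5 in Mapk9 KO. With the replicate block the counts were again 5 and 4, and 0 for both genotype comparisons and the interaction, so the pairing changed no call of a Dusp gene. Of 233 recomputed values per injury comparison, 4 lost their call in WT, and 5 lost and 3 gained it in Mapk9 KO. Quantile normalization without background correction lowered all called probes, among them Dusp16 ILMN_2467596 to 0.91 in WT and 0.93 in Mapk9 KO and Dusp2 ILMN_1242406 to 0.70 in WT. Over all probes it gave 689 higher and 451 lower in WT and 929 and 827 in Mapk9 KO, against 1586 and 1500, and 2015 and 1919, and the methods' t-test gave 984 and 640 in WT. All 45281 probes with neqc gave 1327 and 976 in WT. Genotype calls over all probes moved more: in control cartilage 6 higher and 19 lower became 358 and 54 without replicate 3 of the WT control arrays, and 0 with the methods' t-test. In injured cartilage 15 and 23 became 118 and 36 without replicate 1 of the WT injured arrays, 156 and 32 with the replicate block and 0 with the methods' t-test. The other settings gave 2 to 11 higher and 11 to 33 lower in control, and 4 to 16 and 15 to 23 in injured cartilage, apart from single arrays left out. The rises of Dusp4 and Dusp14, near background in control cartilage, moved most under quantile normalization without background correction, which replaces vsn as well.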

Other observations

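Dusp3, a small phosphatase of ERK and JNK, fell in Mapk9 KO cartilage at ILMN_2684693 (log2 -1.18, SE 0.22, limma adjusted p = 0.00167) and differed by -0.38 in WT, which did not pass (adjusted p = 0.191). Its probe ILMN_2918927 also passed in Mapk9 KO (log2 -1.07) and changed by -0.70 in WT (adjusted p = 0.0648), while ILMN_2637538 changed by 0.34 and 0.15 and did not pass. Dusp13, a phosphatase of testis and skeletal muscle, was detected at ILMN_2719386 on all 3 Mapk9 KO control arrays and on no injured array. At this probe it was at least 2.05-fold lower post injury in Mapk9 KO (limma adjusted p = 1.36e-06). In WT the probe was detected on 1 of 3 control arrays and was not called (log2 -1.37, adjusted p = 0.101). The Dusp13 probe ILMN_3156236, detected on 2 of 3 Mapk9 KO control arrays, was not called there (log2 -1.25, adjusted p = 0.0993), and no fold above the lowest detected signal is shown for it. Dusp3 and Dusp13 were named after their values were seen. Neither change was shown to differ between the genotypes (interaction adjusted p = 0.388 for Dusp3 at ILMN_2684693 and 0.577 for Dusp13 at ILMN_2719386). Muscle markers fell in the same arrays, and their part in the Dusp13 values was not tested.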
